A study of Mus musculus with 4 samples.

Results

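The CA1 pyramidal layer of the hippocampus was examined as 160 Visium spots of 13452 in 4 coronal brain sections, 40 spots from each section. The spots were chosen by expression alone. Each spot with at least 500 UMIs (unique molecular identifiers, 1 per captured probe molecule) and 250 genes was scored by Fibcd1, Spink8 and Wfs1, as the mean of ln(1 + UMIs per 10000 UMIs of the spot) over these 3 genes, and the 40 highest-scoring spots of a section were kept. A Visium spot is a small area of tissue that holds several cells, so these spots contain CA1 neurons together with the glia, vessels and fibres around them.

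The sections came from male C57BL/6J offspring of wild-type genotype at postnatal day 21, cut from formalin-fixed, paraffin-embedded tissue and read with probes for protein-coding transcripts. In the MF group the dams received a diet with 2 mg/kg folic acid (FA), the conventional amount, and in the HF group a diet with 20 mg/kg FA. Both diets began 2 weeks before mating and lasted through pregnancy and lactation. The labels give the dams an age of 8 weeks at assignment, and the study's methods give a range that starts there. Each group had 2 sections, called biological replicates in the study's methods, and the litters they came from are not given in the sources used here. The p-values below therefore measure the spread between 2 sections per diet.

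CA1 pyramidal neurons receive the Schaffer collaterals of CA3 and a direct input from the entorhinal cortex, and they form the main output of the hippocampus to the subiculum and cortex. Their synapses are the classical site of NMDA receptor-dependent long-term potentiation. Activity in these neurons induces immediate early genes such as Arc and members of the Egr and Nr4a families. CA1 neurons are distinguished from CA3 neurons and dentate granule cells by Fibcd1, Spink8 and Wfs1, and Wfs1 is also known from the upper layers of the cortex and from the amygdala.

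Position on the array was not used to choose the spots, and it placed most of them in a single curved band. Of the 160 spots, 146 had another chosen spot among their 6 direct neighbours. When spots within 3 spot spacings of each other were linked, the largest group held 37 and 33 spots in the MF sections and 32 and 40 spots in the HF sections, which is 142 of 160. Here and below, pairs of values are given for replicates 1 and 2 of a diet in that order. In every section this group formed an arc above the spots chosen in the same way for the dentate gyrus (DG). The remaining 18 spots, numbering 3 and 7 in MF and 8 and 0 in HF, lay away from the arc, mostly in the lower lateral part of the section. The definition of the arc was made after the map had been seen, and it was used for description and for an alternative fit.

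**Figure D1:**
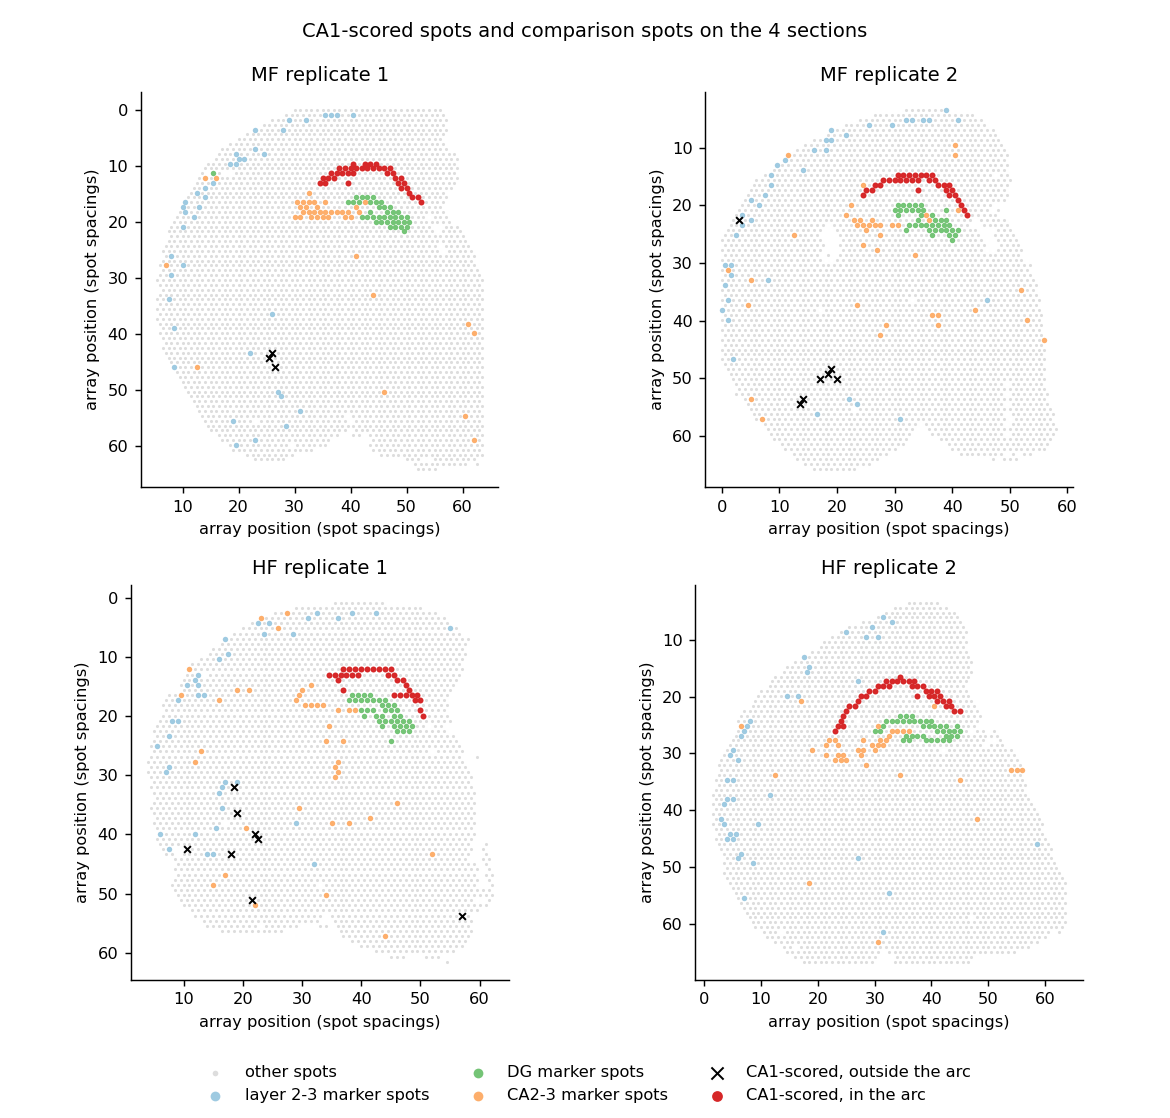
Position of the CA1-scored spots and of the spots scored for CA2-3, the DG and cortical layer 2-3 on the 4 sections, with both axes in spot spacings. Red dots form 1 arc of 32 to 40 spots per section above the green DG spots, and black crosses mark the 18 CA1-scored spots outside the arc, of which HF replicate 2 had none.

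The score fell smoothly through the limit of 40 spots, so the limit is a count and not a boundary of the tissue. At ranks 40 and 41 the score was 1.17 and 1.12 in the first MF section and 1.04 and 1.03 in the second. For the HF sections the scores at these ranks were 1.07 and 1.07, and 1.28 and 1.26. The median score of all other spots was between 0.205 and 0.239. Further spots with a score above 1 numbered 8 and 2 in MF and 8 and 24 in HF, so HF replicate 2 had the most spots of this kind that were left out. The spots outside the arc scored lower than those inside it, with medians of 1.16 to 1.22 against 1.497 to 1.70 in the 3 sections that had them.

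**Figure D2:**
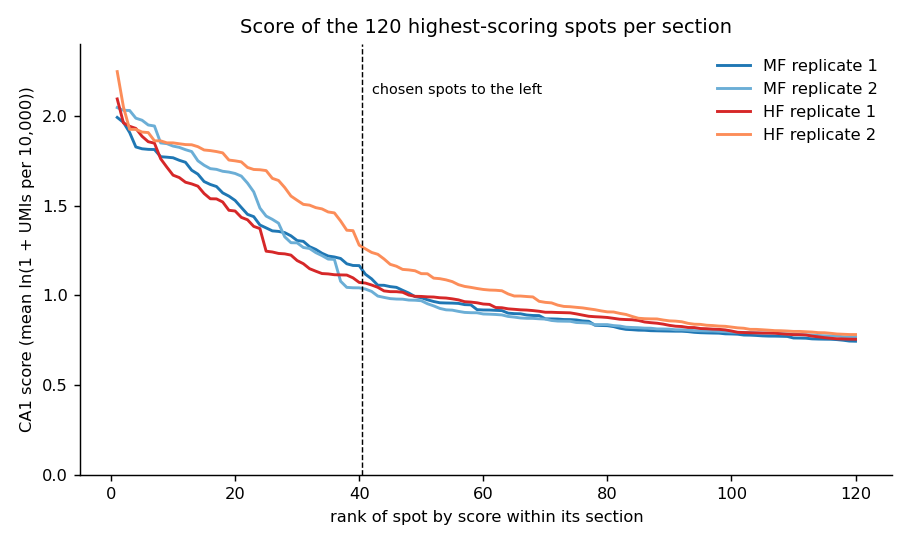
CA1 score, in natural-log units, of the highest-scoring spots of each section against their rank within the section, with 1 line per section and a dashed line after rank 40. All 4 lines decline without a step at the limit, and HF replicate 2 lies highest there, at 1.28 for rank 40.

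The 3 genes of the rule are given as a description, since they selected the spots. Levels are in CPM, the UMIs of a gene per 1000000 UMIs of the summed spots. Wfs1, an endoplasmic reticulum protein, was at 976 and 1115 CPM in MF and at 1068 and 1175 CPM in HF, against 88.2 to 99.4 CPM in the other spots. Fibcd1, a membrane protein that binds acetylated sugars, was at 496 and 495 CPM in MF and at 460 and 514 CPM in HF. Spink8, a predicted serine protease inhibitor, was at 129 and 171 CPM in MF and at 126 and 194 CPM in HF. For all 3 genes the ranges of the diets overlapped. The spots inside and outside the arc differed in which gene carried the score. Inside the arc Fibcd1 was at 520 and 554 CPM in MF and 474 CPM in HF replicate 1, and outside it at 29.8, 74.8 and 268 CPM in the same sections, whereas Wfs1 was at 723 to 998 CPM outside it.

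Several facts of the sections bear on the comparisons. Total UMIs ranged from 34983708 to 90098381 per section, and MF replicate 1 was the deepest. The 40 chosen spots summed to 1362121 and 650509 UMIs in MF and to 532862 and 823022 UMIs in HF, with median UMIs per spot of 31876.5 and 14934 in MF and of 9594.5 and 21732.5 in HF. HF replicate 2 had almost none of a transcript that was abundant in the other sections. Pmch, the precursor of melanin-concentrating hormone made by neurons of the lateral hypothalamus, was at 320 to 697 CPM in the other spots of the first 3 sections and at 0.720 CPM in HF replicate 2. Prkcd was at 330 to 363 CPM in the other spots of the first 3 sections and at 188 CPM in HF replicate 2. Peg10 was at 64.0 to 78.2 CPM and at 40.8 CPM in the same order, whereas Ttr was highest in HF replicate 2, at 3770 CPM. Pmch, Prkcd and Peg10 were thus not matched between the sections of HF, and whether the sections lay at the same plane was not tested. All sections share the array's barcodes, of which 2472 occurred in all 4, because a barcode names a position on a slide and not a cell.

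The label of CA1 was examined with genes that the rule did not use. Pou3f1, a POU-domain transcription factor, was at 219 and 197 CPM in the CA1 spots of MF and at 229 and 290 CPM in those of HF, and at 27.4 ± 2.4 CPM (SD, n = 4 sections) in the other spots. Mpped1, a metallophosphoesterase-domain protein, was at 284 ± 14 CPM against 97.7 ± 7.9 CPM, and Man1a, a Golgi mannosidase, at 209 ± 43 CPM against 79.4 ± 8.1 CPM. Each of these genes was higher in the CA1 spots of all 4 sections. Ccn3, a secreted matrix protein, was the weakest of the listed markers, at 212 ± 18 CPM against 142 ± 19 CPM.

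The summed markers of the neighbouring fields were lower in the CA1 spots than in all other spots of the section, which include regions outside the hippocampus. These sums were not set against spots of the neighbouring fields themselves. The summed level of the 5 dentate granule cell markers was 41.5 to 61.7 CPM in the CA1 spots and 134 to 167 CPM in the other spots, and that of the 5 CA3 markers was 76.5 to 123 CPM against 204 to 242 CPM. Among the CA2 markers, Pcp4, a calmodulin regulator, was at 315 ± 83 CPM against 1161 ± 134 CPM, and Rgs14, a brake on G protein signalling, was higher in the CA1 spots at 47.8 ± 8.3 CPM against 12.4 ± 0.96 CPM. The 5 cortical layer 2-3 markers summed to 151 to 209 CPM in the CA1 spots and to 270 to 283 CPM in the other spots, and most of that level in CA1 was Lamp5, at 132 ± 20 CPM. These markers were measured in the sum of all 40 spots. Outside the arc, Pou3f1 was at 29.8 and 24.9 CPM in MF and at 53.5 CPM in HF replicate 1, each from 2 UMIs. The other spots of these sections had 27.9, 24.6 and 26.8 CPM. Mpped1 was at 119, 137 and 161 CPM outside the arc, and Man1a at 59.6, 150 and 107 CPM. For the 18 spots outside the arc the name CA1 is therefore that of the rule, and Pou3f1 did not set them apart in MF.

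A set of genes stood out over the rest of the section in all 4 sections. Of 4705 genes with a mean of at least 50 CPM in the CA1 spots, 207 (4.4%) were at least 2-fold higher than in the other spots in every section, and of 5029 genes with such a mean in the other spots, 169 (3.36%) were at least 2-fold lower. This comparison is a description, because the spots were chosen by expression. Gm2115, a transcript without a known function, was at 454 ± 33 CPM against 27.3 ± 4.3 CPM, with a median log2 ratio of 4.02 over the sections. Gpr161, a ciliary G protein-coupled receptor that restrains hedgehog signalling, was at 147 ± 19.5 CPM against 11.5 ± 1.2 CPM. Klk8, a secreted protease known for its part in synaptic plasticity, was at 83.7 ± 12.3 CPM against 6.20 ± 0.475 CPM. Genes were ordered by the section in which their ratio was nearest to 0, and these 3 stood first outside the rule.

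The other leading genes covered signalling, calcium sensing and transcription. Hpca, the calcium sensor hippocalcin, was the most abundant of them at 4482 ± 631 CPM against 635 ± 80 CPM. Neurod6, a transcription factor of excitatory neurons, was at 474 ± 115 CPM against 58.8 ± 10.2 CPM. Epha6, an ephrin receptor, was at 496 ± 40 CPM against 92.6 ± 4.2 CPM, and Sstr4, a somatostatin receptor, was at 332 ± 40 CPM against 51.5 ± 3.1 CPM. Iqgap2, Lct, Tbata, Lmo1, Wipf3, Lpl and Gabra5 completed the 15 first genes, with median log2 ratios between 2.30 and 3.33. At the other end, Slc17a6, the vesicular glutamate transporter of thalamic and other subcortical neurons, was at 29.1 ± 2.3 CPM against 181 ± 31 CPM. Tcf7l2, a transcription factor abundant in the thalamus, was at 15.3 ± 2.5 CPM against 88.9 ± 15.1 CPM, and Gpx3, Baiap3 and Dlk1 had median log2 ratios of -2.66 to -2.82.

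**Figure D3:**
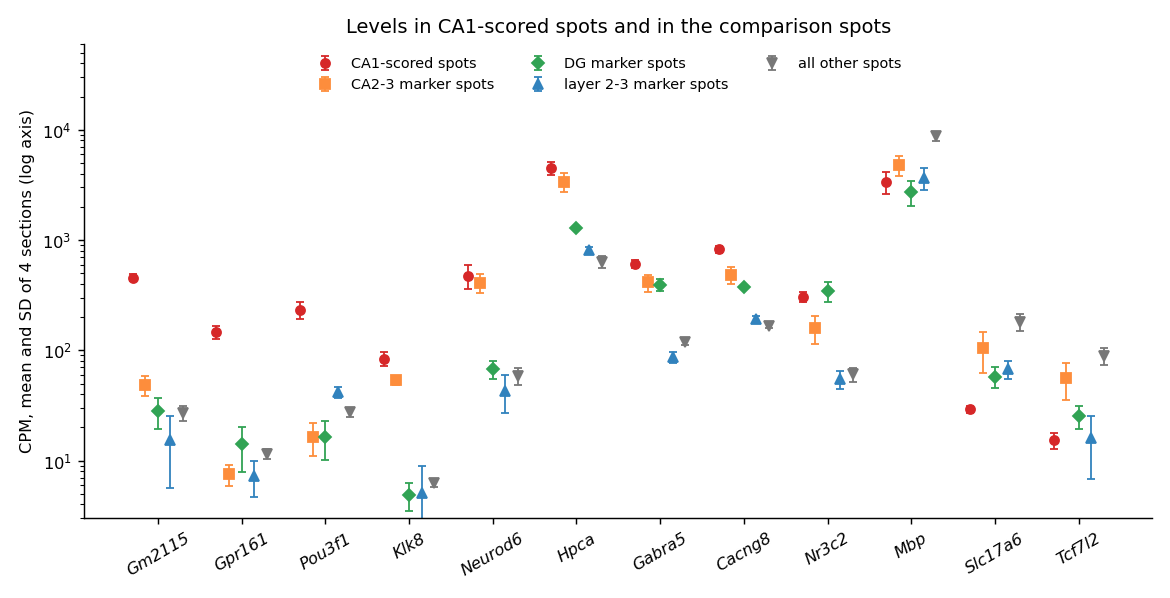
Level in CPM on a log axis of 12 genes in the CA1-scored spots, the 3 sets of comparison spots and all other spots, where points are means and bars are SDs over the 4 sections. Gm2115, Gpr161 and Pou3f1 were highest in the CA1-scored spots, while Neurod6 and Hpca were almost as high in the CA2-3 spots.

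Glutamate receptor subunits, proteins that accompany them and postsynaptic kinases were higher in the CA1 spots. Gria1, an AMPA receptor subunit, was at 1556 ± 127 CPM in the CA1 spots against 408 ± 2.02 CPM in the other spots, a median log2 ratio of 1.89. Gria2 was at 805 ± 44 CPM against 372 ± 17 CPM, and the NMDA receptor subunits Grin1 and Grin2b were at 1429 ± 117 and 1199 ± 188 CPM against 795 ± 43 and 470 ± 35 CPM. Among proteins that accompany AMPA receptors, Cacng8 was at 826 ± 59 CPM against 167 ± 6.34 CPM, and Shisa6 was at 304 ± 59 CPM against 68.2 ± 6.5 CPM. The level of each of these genes lay above that of the other spots in all 4 sections. The kinase and phosphatase subunits Camk2b and Ppp3ca, which act downstream of calcium entry, were at 2231 ± 165 and 3048 ± 403 CPM against 1003 ± 42 and 927 ± 61 CPM.

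Receptors for inhibitory and modulatory signals differed in direction. Gabra5, the GABA-A receptor subunit known for extrasynaptic inhibition in the hippocampus, was at 610 ± 56 CPM against 119 ± 7.19 CPM. Nr3c2, the mineralocorticoid receptor, was at 305 ± 32 CPM against 60.4 ± 8.7 CPM. Ntrk2, the receptor of brain-derived neurotrophic factor, was lower than elsewhere, at 359 ± 42 CPM against 482 ± 48 CPM. Of the ion channels, Scn8a, a sodium channel of the axon initial segment, was at 282 ± 19 CPM against 164 ± 5.84 CPM.

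Other cell types were present in the spots at reduced levels. The 10 oligodendrocyte and myelin genes summed to 6938 to 12435 CPM in the CA1 spots and to 21780 to 27443 CPM in the other spots. The 8 astrocyte markers summed to 1819 to 2768 CPM against 3554 to 3967 CPM, the 9 microglia markers to 267 to 418 CPM against 514 to 544 CPM, and the vessel markers to 124 to 221 CPM against 385 to 447 CPM. Among these lists the interneuron markers varied most between sections, from 543 CPM in HF replicate 2 to 1245 CPM in MF replicate 2. Sst alone, the somatostatin gene, ranged from 184 to 650 CPM. In the other spots the interneuron sum was 1263 to 1529 CPM. It was thus hardly lower in the CA1 spots of MF replicate 2, at 1245 against 1331 CPM, and of HF replicate 1, at 1188 against 1263 CPM. With the arc alone the sum in MF replicate 2 was 912 CPM. In sums over spots, fewer cells of a type and less RNA per cell cannot be told apart.

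The 3 sets of comparison spots were formed by the same procedure, each from the 40 highest-scoring spots of a section that were not CA1 spots. The DG spots, scored by Prox1, C1ql2 and Dsp, were compact, with 39 or 40 of 40 in 1 linked group. The CA2-3 spots, scored by Bok, Iyd and Grik4, were partly scattered, with 29 and 16 of 40 in the largest group in MF and 14 and 28 in HF. The layer 2-3 spots, scored by Cux2, Otof and Stard8, had only 8 to 12 of 40 in the largest group, although many lay along the outer edge of the cortex. Values for the CA2-3 and layer 2-3 sets therefore describe marker-selected spots and not clean layers.

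Against these sets, some of the genes that marked CA1 were low in the other sets and some were not. Of the same 4705 genes, 86 (1.83%) were at least 2-fold higher than in the CA2-3 spots in all 4 sections, 141 (3.0%) than in the DG spots and 108 (2.3%) than in the layer 2-3 spots. Gpr161, Pou3f1 and Gm2115 led against the CA2-3 spots, where they were at 7.51, 16.4 and 48.4 CPM. Ndst4, a heparan sulfate sulfotransferase, was at 72.8 ± 12.6 CPM in the CA1 spots and 5.52 CPM in the CA2-3 spots, and Sertm1, a small membrane protein, was at 200 ± 29 and 23.7 CPM. Neurod6, Tbata and Lpl did not separate these fields, with median log2 ratios of 0.22, 0.33 and 0.26 over the CA2-3 spots. Lct, the intestinal lactase gene, was as high in the DG spots, at 110 CPM against 88.8 ± 22.7 CPM. Cabp7, a calcium-binding protein, was higher in the CA2-3 spots, at 314 CPM against 236 ± 54 CPM, and was low in the layer 2-3 spots at 17.8 CPM.

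The 2 sides of the arc were set against each other, and some genes differed in the same direction in every section. The arc of each section was divided at its middle by array column into 2 sides, of which the side at lower columns was the one nearer the CA2-3 spots. This division was made after the map had been seen and is described without a test. The genes named below were taken from the extremes of this same contrast. The share of all genes with 1 direction in every section was not counted. Of 4667 genes with a mean of at least 50 CPM, none was at least 1.5-fold apart in the same direction in all 4 sections (0.0%). A side held only 219032 to 663878 UMIs, so genes near 50 CPM had few UMIs per side. The count therefore does not show that expression was even along the arc. Tenm3, a teneurin that guides hippocampal connections, was at 203 and 340 CPM in MF and at 311 and 159 CPM in HF on the side of lower columns, and at 142 and 105 CPM in MF and 160 and 85.0 CPM in HF on the other side. Ak5, a neuronal adenylate kinase, had a median log2 ratio of -0.76 in the same direction. Ttr, the transthyretin gene of the choroid plexus, was higher on the side of higher columns in every section, with a median log2 ratio of 0.80. Its level in CA1 spots, 566 ± 135 CPM, was below the 2963 ± 734 CPM of the other spots.

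The comparison of HF with MF asked whether the diet of the dams left a difference in gene expression of this layer in the offspring. Counts were summed over the 40 spots of each section and compared with the quasi-likelihood test of edgeR, with Benjamini-Hochberg adjustment over all genes tested. A gene was called at an adjusted p under 0.05 and a change of at least 1.2-fold. Of 8943 genes, 1 was called (0.0112%), and it was higher in HF (0.0112%), with 0 lower (0.0%). At an unadjusted p under 0.05 there were 482 genes (5.39%). DESeq2 was run on the same sums without the filter on low counts. It called 0 of 14565 genes, with 55 at an unadjusted p under 0.05. The count of calls was not stable, since edgeR called 23 genes without the filter on low counts, and 6, 16, 19 and 2 genes without MF replicate 1, MF replicate 2, HF replicate 1 and HF replicate 2.

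The gene called was Egr1, which encodes a zinc-finger transcription factor induced within minutes of neuronal activity. It lies on chromosome 18 at 34859823 to 34864984 on the plus strand of GRCm38, and the deposited identifier is ENSMUSG00000038418. Egr1 was at 112 and 157 CPM in MF, from 153 and 102 UMIs, and at 439 and 1080 CPM in HF, from 234 and 889 UMIs. Both HF sections lay above both MF sections, and HF replicate 2 was far above HF replicate 1. The log2 fold change was 2.58 ± 0.29 (SE), with an adjusted p of 5.9e-04 by the edgeR test. DESeq2 gave 2.52 ± 0.69 with an adjusted p of 0.99997, so the call rests on the choice of test. Scoring on spots thinned to 5000 UMIs each gave 2.56 ± 0.37 with an edgeR adjusted p of 0.064, which was not called, while 30 or 60 spots per section, a score without Wfs1, spots with a chosen neighbour and the arc alone gave 2.56 to 2.65 and kept the call. With 1 section left out in turn the log2 fold change was 1.76 to 3.09, lowest without HF replicate 2, and each of these fits passed the threshold on the assumption that the lone section of a diet varies like the sections of the other.

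In single spots the HF medians lay above the MF medians. The median Egr1 level of the 40 spots was 1.003 and 1.0001 UMIs per 10000 in MF and 3.19 and 10.2 in HF. The highest spot of MF replicate 1 was at 2.98 and the lowest spot of HF replicate 2 at 2.32 UMIs per 10000, so the spots of this pair of sections overlapped in a narrow range. The spots of MF replicate 2 and HF replicate 1 overlapped widely, from 0 to 4.97 and from 0 to 8.08 UMIs per 10000. In HF replicate 2 all 40 spots had at least 1 Egr1 UMI, against 34 in HF replicate 1 and 36 and 28 in MF.

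**Figure D4:**
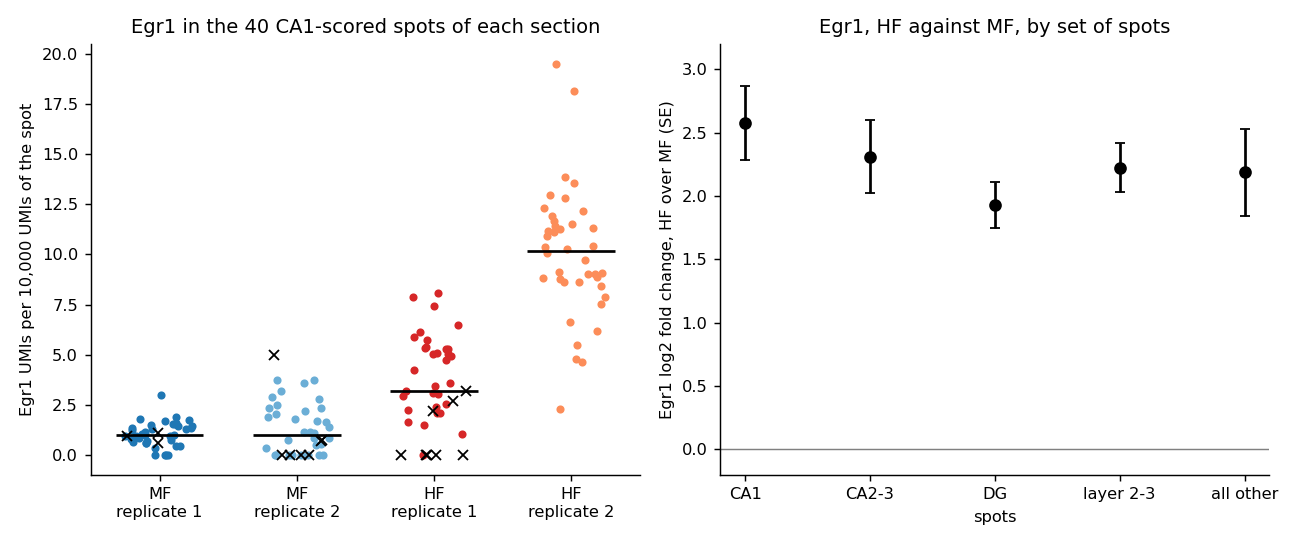
Left, Egr1 UMIs per 10000 UMIs in each of the 40 CA1-scored spots of a section, with a line at the median and crosses for spots outside the arc. Right, log2 fold change of Egr1 in HF over MF with its SE in 5 sets of spots, all between 1.93 and 2.58.

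The Egr1 difference was not particular to the CA1 spots. The log2 fold change was 2.31 ± 0.29 in the CA2-3 spots, 1.93 ± 0.18 in the DG spots and 2.22 ± 0.19 in the layer 2-3 spots, each called by edgeR. In all other spots it was 2.19 ± 0.35 with an adjusted p of 0.71. In 1 model over the 4 spot sets with section as a block, the change in CA1 exceeded that in CA2-3 by 0.29 ± 0.26, that in DG by 0.60 ± 0.25 and that in layer 2-3 by 0.41 ± 0.25 on the log2 scale, and the edgeR adjusted p-values of these differences were 0.99996, 1 and 0.98, so no difference between the fields was called. The level itself was higher in the CA1 spots than in the CA2-3 and DG spots of every section, while the layer 2-3 spots of MF replicate 1 were slightly above them at 117 CPM.

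Most other immediate early genes leaned the same way without being called. Of 30 genes in the list, 22 passed the filter on low counts, 18 had a log2 fold change above 0 and 4 below 0, beside 50.5% and 49.5% of all genes tested, and the median was 0.37, beside 0.003 over all genes tested. Without MF replicate 1 the median was 0.19. Only Egr1 was called. In 12 of the 22 genes both HF sections lay above both MF sections, and in 1 both lay below, while over all genes tested the shares were 16.0% and 18.0%. Nr4a3, an orphan nuclear receptor, was at 163 and 175 CPM in MF and at 244 and 305 CPM in HF, a log2 fold change of 0.73 ± 0.16. Its adjusted p was 0.22 by the edgeR test. Arc, which controls the trafficking of AMPA receptors, was at 160 and 163 CPM in MF and at 238 and 250 CPM in HF, and Nr4a1 was at 140 and 125 CPM in MF and at 184 and 236 CPM in HF. Separate sections were a condition for naming Arc and Nr4a1, and both had an adjusted p of 0.32 by the edgeR test.

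The pattern within the list was not uniform. Egr3, Egr4, Junb and Dusp6, a phosphatase that ends MAP kinase signalling, had log2 fold changes of 0.42 to 0.67 with separate sections. Jund, which is expressed constitutively in neurons, was at 476.5 and 490 CPM in MF and at 475 and 480 CPM in HF, with a log2 fold change of -0.01 ± 0.13. Homer1, Bdnf, Klf10 and Nr4a2 had overlapping sections. Summed over the list, the level in the CA1 spots was 2461 and 2587 CPM in MF and 3395 and 4206 CPM in HF. In the other spots the sum was 1577 and 1606 CPM against 1984 and 2044 CPM, so the same order of diets was measured outside CA1. These sums include Egr1, which was at 112 and 157 CPM in MF and 439 and 1080 CPM in HF in the CA1 spots. In the other spots Egr1 was at 48.1 and 56.4 CPM against 152 and 325 CPM. Sums without Egr1 were not made.

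**Figure D5:**
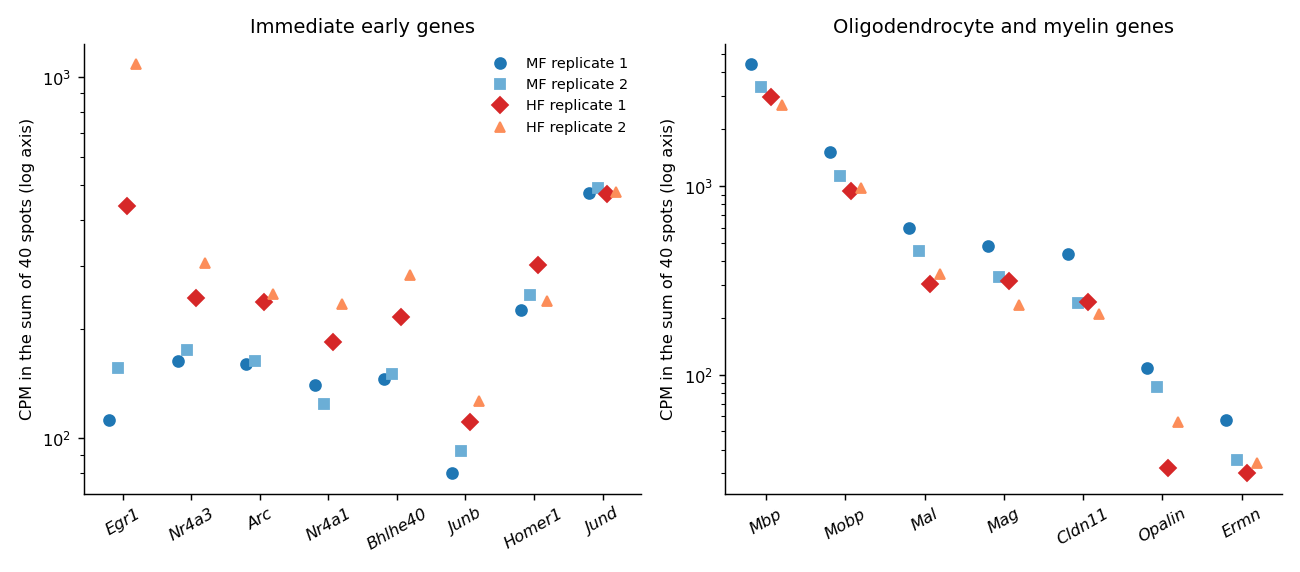
Level in CPM on a log axis of 8 immediate early genes and 7 oligodendrocyte and myelin genes in the sum of 40 CA1-scored spots, 1 point per section. Egr1 reached 439 and 1080 CPM in HF against 112 and 157 CPM in MF, Jund was level over the 4 sections, and Mbp was highest in the MF sections at 4409 and 3333 CPM.

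Genes of oligodendrocytes and myelin leaned the other way, and none was called. All 10 genes of the list passed the filter and had log2 fold changes below 0, against 49.5% of all genes tested, with a median of -0.59. Without MF replicate 1 the median was -0.25. In 9 of the 10 both HF sections lay below both MF sections, against 18.0% of all genes tested. Mal, a proteolipid of compact myelin, was at 598 and 450 CPM in MF and at 302 and 341 CPM in HF, a log2 fold change of -0.70 ± 0.15 with an adjusted p of 0.24 by the edgeR test. Opalin, a membrane protein of mature oligodendrocytes, was at 109 and 86.1 CPM in MF and at 31.9 and 55.9 CPM in HF, a log2 fold change of -1.10 ± 0.24 with an adjusted p of 0.23. Both genes passed the test when the filter on low counts was dropped, as did Mbp. Mbp, the most abundant of the list and a structural protein of the sheath, was at 4409 and 3333 CPM in MF and at 2963 and 2697 CPM in HF. The MF sections differed among themselves, since the summed level of the list was 12435 and 8825 CPM in MF, against 7935 and 6938 CPM in HF. In the other spots the sum was 26223 and 27443 CPM in MF and 21780 and 23475 CPM in HF.

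Ugt8a, Trf, Plekhb1 and Cyp51 were among the 10 genes of smallest p with lower levels in HF, and none was called. Ugt8a, which makes galactosylceramide for myelin, was at 128 and 103 CPM in MF and at 61.9 and 65.6 CPM in HF. Trf, the transferrin gene, and Plekhb1 had log2 fold changes of -0.69 ± 0.17 and -0.68 ± 0.16. Cyp51, a sterol demethylase of cholesterol synthesis, was at 91.8 and 70.7 CPM in MF and at 35.7 and 40.1 CPM in HF, with a log2 fold change of -1.11 ± 0.23 and an adjusted p of 0.20 by the edgeR test. Separate sections were a condition for naming these 4 genes. Over all genes tested, both HF sections lay below both MF sections in 18.0%.

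Hap1, Nts and Tac2 were not called, and much of their signal lay in the spots outside the arc. Hap1, a partner of huntingtin in vesicle transport, was at 106 and 166 CPM in MF and at 61.9 and 35.2 CPM in HF, a log2 fold change of -1.48 ± 0.27 with an adjusted p of 0.13 by the edgeR test. In the spots outside the arc Hap1 was at 953 and 923 CPM in MF and at 402 CPM in HF replicate 1, and HF replicate 2 had no such spots. With the arc alone, an alternative added after the map had been seen, its log2 fold change was -0.77 with an adjusted p of 0.81. Nts, the neurotensin precursor, had 125 UMIs in the 40 spots of MF replicate 1, of which 111 came from 3 spots outside the arc, and it did not pass the filter when the arc was taken alone. Tac2, the neurokinin B precursor, went from -1.90 ± 0.43 to -0.93 with the arc alone. When spots were scored after thinning to 5000 UMIs, the log2 fold change of Tac2 was 0.26. Other settings called these genes, as without the filter on low counts, where Hap1 was at -1.48, Nts at -3.36 and Tac2 at -1.90, and with 60 spots per section, where they were at -1.11, -3.96 and -2.63.

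Among the remaining genes of smallest p, Cbfa2t3, a transcriptional corepressor, was at 27.2 and 33.8 CPM in MF and at 76.9 and 65.6 CPM in HF, a log2 fold change of 1.26 ± 0.25 with an adjusted p of 0.20 by the edgeR test. Per2, a repressor of the circadian clock, was at 41.1 and 20.0 CPM in MF and at 78.8 and 82.6 CPM in HF. Bhlhe40, a transcription factor regulated by both activity and the clock, was at 146 and 151 CPM in MF and at 216 and 283 CPM in HF. With the arc alone the log2 fold changes of Cbfa2t3, Per2 and Bhlhe40 were 1.19, 1.33 and 0.73, close to those of all 40 spots. Unc13b, which primes synaptic vesicles, Nhsl1 and Trappc12 had log2 fold changes of 0.84 ± 0.21, 1.04 ± 0.25 and 0.70 ± 0.18. Mt2, a metal-binding metallothionein, was at 375 and 286 CPM in MF and at 242 and 130 CPM in HF, while the neuronal metallothionein Mt3 had a log2 fold change of -0.0009 ± 0.12.

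For the clock genes as a list the median log2 fold change was 0.22, and 11 of 15 were above 0 with none called. Nr1d1, a repressor of the clock, was at 92.5 and 90.7 CPM in MF and at 118 and 176 CPM in HF. Arntl, which encodes the activator BMAL1, was at 85.2 and 86.1 CPM in MF and at 54.4 and 74.1 CPM in HF. The time of day at which the brains were taken is not given in the sources used here.

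Genes of folate and one-carbon metabolism, the pathway supplied by the diet, were divided evenly in direction. Of 35 genes in the list, 32 had probes and 16 passed the filter, 8 with a log2 fold change above 0 and 8 below 0, and the median was -0.02. The median depended on single sections, at 0.29 without HF replicate 2, 0.11 without MF replicate 1, -0.11 without MF replicate 2 and -0.16 without HF replicate 1. The highest level in the group was that of Ahcyl1, which resembles the hydrolase of S-adenosylhomocysteine, at 592 and 633 CPM in MF and 614 and 550 CPM in HF. Mat2b, the regulatory subunit of methionine adenosyltransferase, was at 252 and 260 CPM in MF and 251 and 215 CPM in HF. Mtr, methionine synthase, was at 28.6 and 35.4 CPM in MF and at 43.2 and 45.0 CPM in HF, a log2 fold change of 0.52 ± 0.28 with an adjusted p of 0.94 by the edgeR test.

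The enzymes and readers of DNA methylation were divided as evenly, with 6 of 12 tested genes above 0, 6 below 0 and none called. Dnmt3a, a de novo methyltransferase, was at 126 and 146 CPM in MF and at 124 and 119 CPM in HF, a log2 fold change of -0.14 ± 0.17. Tet3, a methylcytosine dioxygenase, was at 46.3 and 36.9 CPM in MF and at 63.8 and 59.5 CPM in HF, and Tdg, a glycosylase that removes oxidised methylcytosine, was at 64.6 and 70.7 CPM in MF and at 45.0 CPM in both HF sections.

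No gene was called in the lists that describe CA1 neurons. For the CA1 markers outside the rule the median log2 fold change was 0.28, 4 of 5 lay above 0, and the median was -0.08 without HF replicate 2. Among the glutamate receptor subunits the median log2 fold change was 0.13, with 9 of 14 above 0, the voltage-gated channels -0.03 with 11 of 24, the GABA-A receptor subunits -0.002 with 5 of 11 and the neuromodulator receptors 0.01 with 8 of 15. Gria1 was at 1460 and 1520 CPM in MF and 1501 and 1744 CPM in HF, a log2 fold change of 0.14 ± 0.13. The transcription factors of pyramidal neurons had a median of 0.21 with 19 of 21 above 0, and the genes of the postsynaptic density a median of 0.16 with 15 of 18. The median of the transcription factors was 0.05 without HF replicate 2. Neurod6 was at 388 and 430 CPM in MF and at 434 and 643 CPM in HF, a log2 fold change of 0.43 ± 0.17, and it was called only without HF replicate 1, at 0.69 with an edgeR adjusted p of 0.030.

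The astrocyte, interneuron and chaperone lists had medians below 0. The astrocyte markers had a median of -0.21 with 7 of 8 below 0, the interneuron markers -0.35 with 7 of 8 below 0 and the chaperones -0.19 with 10 of 12 below 0, and none of these genes was called. Without HF replicate 2 the astrocyte and interneuron medians were -0.02 and 0.01, each with 4 of 8 below 0. With the arc alone the median of the interneuron markers was -0.07, whereas that of the astrocyte markers was -0.21 and that of the myelin genes -0.61. Summed over the list, the astrocyte markers were at 2582 and 2247 CPM in MF and at 2768 and 1819 CPM in HF, so the diets overlapped. The 5 excitatory neuron markers summed to 6286 and 6283 CPM in MF and to 6617 and 7180 CPM in HF, and all 5 had log2 fold changes above 0, with a median of 0.21 that was 0.08 without HF replicate 2. What part the mixture of cells had in the values of single genes was not tested.

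The difference between diets in CA1 was set against that in the comparison spots in 1 edgeR model with section as a block. Its p-values measure how the differences between spot sets varied among sections of a diet. They do not measure the spread of the levels between those sections. Of 9925 genes, 1 was called against CA2-3 (0.0101%), 2 against DG (0.0202%) and 1 against layer 2-3 (0.0101%), while 4.0%, 3.99% and 4.36% had an unadjusted p under 0.05. All 3 comparisons called Pmch, with differences in log2 fold change of 3.49 ± 0.30, 3.98 ± 0.34 and 4.51 ± 0.42 and adjusted p-values of 2.6e-09, 1.6e-09 and 2.7e-08. In the CA1 spots Pmch was at 119 and 61.5 CPM in MF and at 355 and 0 CPM in HF, so the HF sections lay at opposite ends. In HF replicate 1, 178 of its 189 UMIs came from the spots outside the arc, and a single spot reached 220 UMIs per 10000. Without HF replicate 1, where the remaining HF section had 0 Pmch UMIs in all 4 sets, it was called in none of the 3 comparisons, and with only the largest linked group of each set it was called against neither CA2-3 nor DG. Within the CA1 spots alone the log2 fold change of Pmch was 0.69 ± 0.73, and with the arc alone, where it was called, it was -3.33.

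Spata13, a guanine nucleotide exchange factor, was called against the DG spots, with a difference of -2.44 ± 0.45 and an adjusted p of 0.017 by the edgeR test. It was at 25.7 and 44.6 CPM in MF and at 11.3 and 7.29 CPM in HF in the CA1 spots, and at 61.9 and 53.4 CPM in MF and 75.1 and 96.8 CPM in HF in the DG spots. The sections of the diets did not overlap in either set. The call was lost without MF replicate 2, at -2.02, without HF replicate 2, at -1.87, and with only linked spots, at -1.86, and after thinning the gene was not tested. No immediate early gene and no myelin gene was called in these comparisons, and for Opalin the change in CA1 differed from that in CA2-3 by -0.73 ± 0.31, from that in DG by 0.03 ± 0.33 and from that in layer 2-3 by -1.05 ± 0.36.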

How the data were processed

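Visium-FFPE libraries of 4 coronal sections were analysed, 2 MF and 2 HF. Per the labels and methods, the authors used Space Ranger 2.0.0 and mm10, and they deposited UMI counts that were not normalized, with 19465 features per spot. A deposited table of Moran's I, its p-values and signal columns was not used beyond a check of its total counts, which equal those of the matrices. No column of another series was present. Barcodes are array positions, so 2472 occur in all sections. Between 2 and 7 spots per section fell under the limits of 500 UMIs or 250 genes, which follow the study's methods. The members, gene lists and comparison sets were chosen with earlier results of these data known.

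UMIs were summed over the 40 chosen spots of a section. HF and MF were compared in R 4.3.3 by edgeR 4.0.16 (glmQLFit and glmQLFTest, after TMM and filterByExpr). Spots of 1 section are not replicates, so the study's test over single spots was not used, and its thresholds of 1.2-fold and an adjusted p of 0.05 were kept. Region by diet differences were fitted over 4 spot sets with section as a block. Ratios of CA1 to other spots are on the log2(CPM + 1) scale. The scripts were tested on simulated data. Fibcd1, Spink8 and Wfs1 were given no test.

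Named genes were the called genes, those of smallest p with separate sections and a mean of at least 20 CPM up to 10 per direction, the 15 highest and 5 lowest ratios over the other spots among genes of at least 50 CPM, the 5 highest over each comparison set, and up to 4 of highest level per list. Other list members, and genes of the 2 sides of the arc, were named after their values were seen. The 28 lists held 332 genes. Alternatives were DESeq2 1.42.0, library size alone, no filter on low counts, the replicate number as a block, each section left out, spots thinned to 5000 UMIs, 30 or 60 spots, a score without Wfs1, only spots with a chosen neighbour and, added after the data were seen, only linked spots. Gene positions come from GENCODE vM21, with 19451 features matched. Some listed genes are not reported here.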

Additional observations from a re-analysis of the deposited data

Results flagged for a closer look

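The difference between diets in CA1 departed from that of a comparison set for 2 genes. For Pmch the departure on the log2 scale was 3.49 against the CA2-3 spots, 3.98 against the DG spots and 4.51 against the layer 2-3 spots, by the region by diet test of edgeR. Its level in the CA1 spots was 119 and 61.5 CPM in MF and 355 and 0 CPM in HF, and in HF replicate 1 the spots outside the arc held 178 of 189 UMIs. For Spata13 the departure was -2.44 against the DG spots. Its level was lower in both HF sections in the CA1 spots, from few UMIs, and also in the CA2-3 spots. It was higher in both HF sections in the DG spots. Pmch was called in none of these comparisons without HF replicate 1, and Spata13 was not called without MF replicate 2, at -2.02, or without HF replicate 2, at -1.87.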

How the results depend on the processing

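The edgeR test called 1 gene for HF against MF in the CA1 spots, and 1 gene among those of the lists. DESeq2 called 0 and 0, and scoring after thinning the spots to 5000 UMIs gave 0 and 0. Without the filter on low counts 23 genes were called, 9 of them in the lists. With 30 spots per section there were 4 and 3, with 60 spots 11 and 5, and with only spots that had a chosen neighbour 10 and 5. The arc alone, added after the data were seen, gave 2 and 1. Leaving out 1 section gave 2 to 19 genes, and 1 to 8 in the lists. Library size alone, thinned sums and a score without Wfs1 left both counts at 1. Against CA2-3 the count of 1 became 7 without the filter, 3 after thinning and 1 to 5 with 1 section left out. Against DG the count of 2 became 1 after thinning, 0 with only linked spots and 1 to 3 with 1 section left out. Against layer 2-3 the count of 1 became 4 without the filter and 0 to 1 with 1 section left out. Spots with a chosen neighbour made up 91.2% of the total, and 80.8% with 60 spots per section. For the 20 genes named for HF against MF, 291 of 292 values under the alternatives kept their direction. The exception was Tac2, at 0.26 when the score came from thinned spots. The uncalled genes among them were named only with separate sections. Refits of the same sums, also with a section left out, could therefore hardly reverse their direction, and the count is no measure of stability. Pmch, named for the regions, went from 0.69 to -3.33 with the arc alone and to -3.43 with 30 spots. For 63 of these values a gene was newly called, and for 2 the call was lost. Of 418 list medians, 73 moved by more than the spread between sections. The causes were not tested. Without genes tested after thinning, the CA3 and dentate lists gave no median there.

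The replicate number as a block gave 25 calls, 12 of them in the lists, among them Mbp, Mal, Opalin, Mag, Arc, Nr4a1 and Nr4a3. The numbers were not taken to pair the sections, because the differences between replicates 1 and 2 in MF and in HF correlated at r = 0.0632 over 8946 genes, and no label states a shared litter or day. With 2 sections per diet and sums of 532862 to 1362121 UMIs, the precision was limited by the number of sections and by the shallowest sum.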
